A study of Mus musculus with 16 samples.

Results

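Of the 16 primary mouse rhabdoid tumors profiled by RNA sequencing, 11 belonged to the Myc subgroup by the study's sample table (the location labels give the same 11), and these were compared by the age of the mouse at collection. The age stands for latency, since mice were killed when they showed neurological signs, lost weight or, for extracranial tumors, reached a size limit. There were 5 tumors collected at 100 days or less and 6 collected after more than 100 days. The short-latency tumors came from mice 29941C (52 days), 43987A (80 days), 43998A (84 days), 43990A (90 days) and 43992A (90 days). The long-latency tumors came from mice 43989C (106 days), R26P115 (115 days), R26P123 (123 days), 29225D (147 days), R26P170 (170 days) and 43825B (210 days).

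Each tumor came from a different mouse of the Smarcb1flox/flox;R26-CreERT2 genotype. In this model, tamoxifen given in the embryo activates a Cre recombinase that is driven in all tissues, and the floxed copies of Smarcb1 are deleted. The cell in which a tumor began is therefore not set by the design. All 5 short-latency mice had tamoxifen at embryonic day 8 (E8). Of the long-latency mice, 43989C, R26P115 and R26P123 had it at E8, 29225D at E7 and R26P170 and 43825B at E6. Age and day of induction thus cannot be fully told apart, and the comparison was repeated on the E8 tumors alone. The 3 mice named R26P were all in the long-latency group, so the comparison was also repeated on numbered mice alone. The short-latency tumors were 2 intracranial tumors outside the central nervous system (29941C and 43992A) and 3 extracranial ones (jaw, mouth and nose). The long-latency tumors were 4 intracranial tumors, also outside the central nervous system, and 2 extracranial ones (back and jaw). The tumor of 43990A, extracranial by its label, is intracranial in the study's sample table. The short-latency mice were 3 females and 2 males, and the long-latency mice were 4 females, 1 male and 1 without a recorded sex.

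Rhabdoid tumors arise through loss of Smarcb1, a core subunit of the SWI/SNF complexes, which move nucleosomes and keep lineage genes accessible. Few other mutations accompany this loss. The Myc subgroup is known for high expression of Myc and of developmental genes such as the Hox genes. Myc encodes a transcription factor that drives ribosome production, nucleotide synthesis and entry into the cell cycle, so genes of these programs were examined beside the genes found by the test across the transcriptome.

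Between 19868824 and 110177889 reads were counted per tumor in the short-latency group (median 31551428), and between 17889968 and 67547714 in the long-latency group (median 28392439.5). Levels of single genes are given as CPM (counts scaled to a common library total, here with TMM factors) and compare tumors, not genes. One library stood apart. The tumor of R26P115 carried 10.1% of its reads in Ttr, the transthyretin gene of the choroid plexus, against at most 6.15e-05% in the other 10 tumors, and it had the lowest mean correlation with the other tumors (0.543, against 0.611 to 0.734). Some named genes and lists lose their place under a threshold, or move by over 1.5 times, without this tumor. For a part of them that value is given too, and where none is given the result may still depend on this tumor. In these bulk samples, fewer cells of a type and less RNA per cell cannot be told apart.

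Smarcb1, the deleted gene (chromosome 10 of GRCm38, 75896769 to 75921617), was checked first. Its level was 6.36 CPM in 29941C, 8.78 in 43987A, 16.1 in 43998A, 5.79 in 43990A and 4.82 in 43992A. In the long-latency tumors it ran from 7 CPM in 29225D to 35.3 CPM in R26P115, with a median of 12.4. The groups overlapped (8.38 ± 4.58 CPM, SD, n = 5, against 15.7 ± 10.5 CPM, SD, n = 6), and the log2 fold change of long against short latency was 0.91 (standard error 0.49, edgeR quasi-likelihood test, adjusted p = 0.568). Without R26P115 it was 0.47. The source of the remaining Smarcb1 reads was not tested, since counts per gene do not separate the deleted part.

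The first comparison asked which genes differed between tumors of short and long latency. Slc2a3, which encodes the glucose transporter GLUT3, showed the smallest p of the 21261 genes tested and lay lower in all 6 long-latency tumors than in any short-latency tumor, with a 20.5-fold difference between the groups in the fit. Other genes without overlap included Tgif2, a repressor of TGF-beta responses, which lay lower after 100 days, and Fhl1, a LIM-domain protein of muscle, and Mfsd6, a membrane transporter, which lay higher. These 4 genes did not pass the correction over all genes in edgeR, and DESeq2 called each of them. In edgeR's quasi-likelihood test, 0% of the genes (0 of 21261) reached an adjusted p under 0.05 with an absolute log2 fold change above 1, and the smallest adjusted p was 0.551. At an unadjusted p under 0.05 there were 1917 genes, or 9.02%, with 1355 (6.37%) higher and 562 (2.64%) lower after 100 days. This count was 1097 with site as a covariate and 798 among numbered mice. The balance moved too, with 1544 higher and 160 lower among E8 tumors, and 385 higher and 462 lower among intracranial tumors. By the Wald test of DESeq2, 112 genes passed the thresholds on adjusted p and fold change, 99 of them higher (0.466%) and 13 lower (0.0611%). DESeq2 gave no adjusted p for 5175 genes, so its shares of all 21261 genes include genes that it could not call. With the same thresholds, limma on log2(TPM + 1) called 0 with 589 genes at an unadjusted p under 0.05, of which 287 were higher and 302 lower. The verdict on single genes thus differed between tests, and the genes below are given by their values in each tumor.

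A mean count of 50 or more was reached by 14274 genes, of which 19 (0.133%) were higher in every long-latency tumor than in any short-latency tumor by CPM of the library total, and 45 (0.315%) were lower. With TMM scaling, an alternative added after seeing the data, these counts were 25 and 34, and 17 and 23 genes were without overlap on both scales. For a gene unrelated to latency, 1 of the 462 assignments of tumors to the groups separates them in a given direction. The share of 0.133% lies below this rate and that of 0.315% above it. These counts are thus near the chance level, and a lack of overlap alone is no sign of a latency effect. The genes described are those without overlap by CPM of the library total, with the smallest p and an absolute log2 fold change above 1. Of these, 7 lay lower and 10 higher after 100 days. Each of them had an edgeR adjusted p of 0.551.

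Slc2a3 (ENSMUSG00000003153.10, chromosome 6 of GRCm38, 122727809 to 122801640) is expressed in neurons, in the placenta and in the early embryo, and carries glucose at low external concentrations. Its level was 387 CPM in 29941C, 50.8 in 43987A, 221 in 43998A, 43.3 in 43990A and 383 in 43992A. In the long-latency tumors it was 18.9 CPM in 43989C, 5.16 in R26P115, 19.8 in R26P123, 8.32 in 29225D, 4.71 in R26P170 and 6.72 in 43825B. The lowest short-latency tumor lay 2.19-fold above the highest long-latency tumor, and the short-latency tumors themselves differed more among each other than the long-latency tumors did (217 ± 169 CPM, SD, n = 5, against 10.6 ± 6.91 CPM, SD, n = 6). The log2 fold change was -4.36 (standard error 0.71, unadjusted p = 5.73e-05, edgeR adjusted p = 0.551), and DESeq2 gave an adjusted p of 3.19e-07. Since the gene was chosen for groups that do not overlap, no subset of these tumors could lose the separation, and the subsets bear only on its size. The log2 fold change was -3.91 among E8 tumors, -4.28 among numbered mice, -5.38 among intracranial and -3.02 among extracranial tumors, with edgeR adjusted p values from 0.485 to 0.879. Leaving out single tumors moved it between -4.63 and -4.04.

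**Figure D1:**
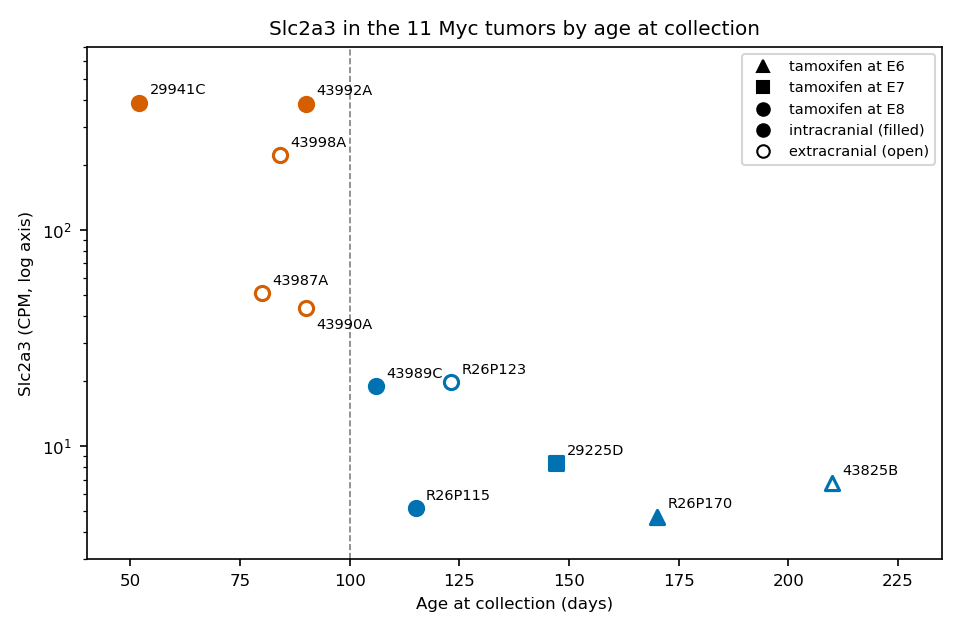
Slc2a3 in CPM after TMM scaling (log axis) against the age of the mouse at collection in days, 1 point per tumor, orange for the 5 tumors at or under 100 days and blue for the 6 later ones. Marker shape gives the day of tamoxifen and filling the site, and the long-latency tumors at E6, E7 and E8 all lie under 20 CPM.

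The other genes of glucose use did not share this pattern. Of the 26 members of the list for glycolysis and hypoxia, Slc2a3 was the only gene without overlap, and it was the only one that DESeq2 called. The median log2 fold change of the list was -0.05, against 0.03 over all genes tested (0.08 and -0.03 without R26P115), and 12 of 26 members had a positive value. Slc2a1, which encodes the widespread glucose transporter GLUT1, ranged from 40.8 to 650 CPM in the short-latency and from 129 to 1260 CPM in the long-latency tumors (log2 fold change 0.49, unadjusted p = 0.514). Ndrg1, a gene induced by hypoxia, had values of 17.4, 38.8, 18.8, 6.97 and 15.1 CPM in the short-latency tumors and of 15.4 to 74.3 CPM (median 36.7) in the long-latency tumors. Its log2 fold change was 1.08 (unadjusted p = 0.039, edgeR adjusted p = 0.551). Eno1 had at most 0.0591 CPM in any tumor and is not read here.

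Tgif2 (chromosome 2) encodes a homeodomain protein that represses transcription downstream of TGF-beta. It had 23.4, 32.2, 18.8, 48.9 and 26.7 CPM in the short-latency tumors, in the order of age given above, and 7.12 to 17.0 CPM (median 11) in the long-latency tumors. The log2 fold change was -1.40 (standard error 0.33, unadjusted p = 0.00134). It was lower by a similar amount among E8 tumors (-1.34) and among numbered mice (-1.62). Grik1, a kainate receptor subunit for glutamate, was at low levels throughout, with 5.59, 2.43, 0.815, 1.30 and 2 CPM against 0 to 0.585 CPM (log2 fold change -2.97).

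Cenpw, a protein of the centromere, had 6.10 to 13.6 CPM in the short-latency tumors and 0.844 to 5.75 CPM in the long-latency tumors (log2 fold change -1.21), the lowest value in R26P115. Tesmin, a metallothionein-like protein of the testis, had 1.89 to 7.28 CPM against 0.622 to 1.70 CPM (-1.51). For Mgarp, a mitochondrial protein, and BC051142, the groups were apart by CPM of the library total but touched after TMM scaling. Mgarp had 3.67 to 16.6 CPM against 0.222 to 3.70 CPM (-2.11), and BC051142 had 3.49 to 9.92 CPM against 0.79 to 3.87 CPM (-1.39). Of the 7 genes, DESeq2 called 3 (Slc2a3, Tgif2 and Grik1).

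**Figure D2:**
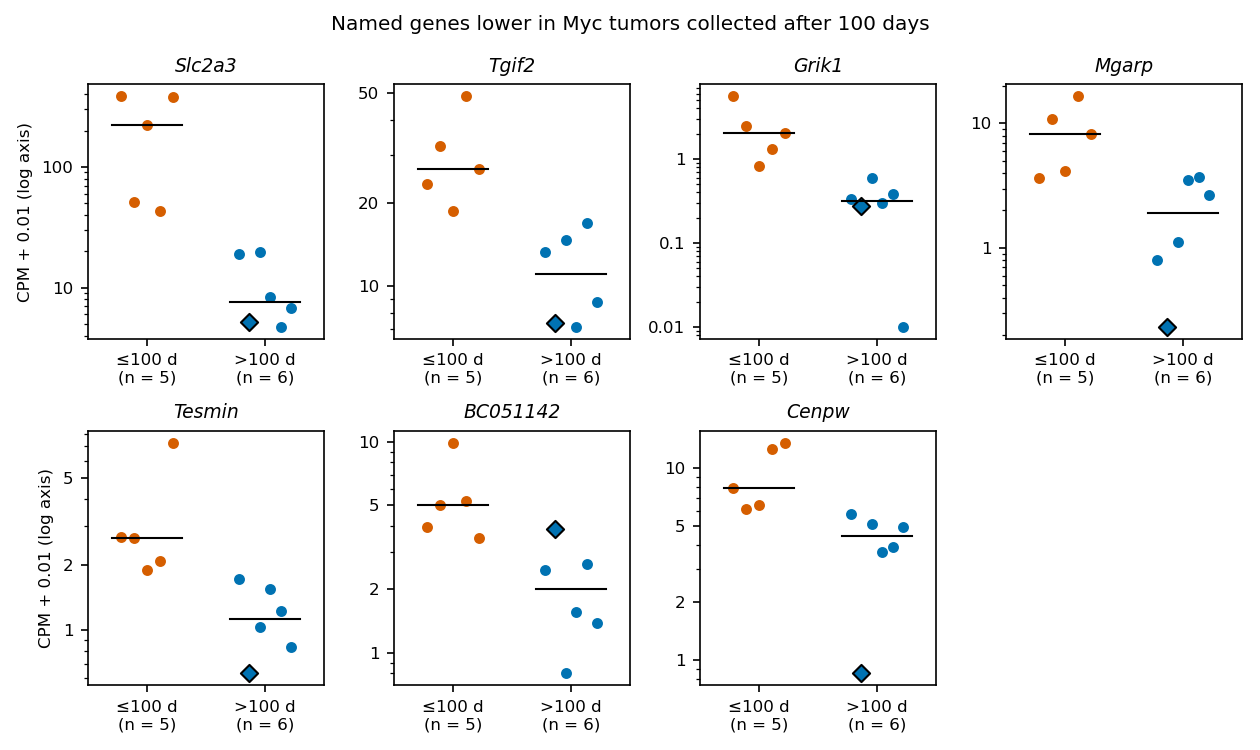
CPM after TMM scaling plus 0.01 (log axis) of the 7 named genes lower in long-latency tumors, 1 point per tumor, with tumors in order of age within each group, black lines for medians and a diamond for R26P115. The groups touch for Mgarp and BC051142 and are apart for the other 5 genes.

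Among the 10 genes higher after 100 days, the highest tumor held 24.1% to 40% of the summed long-latency CPM for 4 genes and 73.9% to 96.1% for the other 6. The 4 genes come first. C130071C03Rik, a noncoding RNA on chromosome 13 of GRCm38 (83721381 to 83884194), had 1.65, 2.86, 0.424, 0 and 1.49 CPM in the short-latency tumors. The long-latency tumors had 20.5, 18.0, 5.15, 22.4, 11.6 and 5.07 CPM, so that no single tumor carried the difference (log2 fold change 3.42, standard error 1.01, unadjusted p = 0.00581). It was 3.50 among E8 tumors and 3.63 among numbered mice. Mfsd6 had 3.19 to 11.3 CPM in the short-latency and 13.1 to 27.9 CPM (median 16.8) in the long-latency tumors, and its log2 fold change was 1.45 (standard error 0.37). Fhl1 (X chromosome) had 1.90 to 4.75 CPM against 4.98 to 45.3 CPM (median 11.5), a log2 fold change of 2.47 (standard error 0.58). Its highest values were those of R26P123 (45.3 CPM) and R26P115 (30.2 CPM). Adcyap1r1, the receptor of the neuropeptide PACAP, had 0.130 to 1.18 CPM against 1.61 to 6.01 CPM (log2 fold change 2.41).

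For the other 6 genes, 1 tumor held most of the long-latency CPM. Nr5a2, a nuclear receptor of liver, pancreas and early embryo, had 0.391 to 0.974 CPM in the short-latency tumors. In the long-latency tumors it had 81.6 CPM in 29225D and 20.4 CPM in 43989C but only 1.23 to 1.61 CPM in the other 4. Myo3b, a class III myosin, reached 99.8 CPM in 43825B, which held 91.6% of the summed long-latency CPM, and lay between 0.263 and 4.70 CPM in the other 5, against 0.0435 to 0.175 CPM in the short-latency tumors. Ddo (D-aspartate oxidase), Map3k19 (a protein kinase), Tmem184a (a membrane protein) and Sh3rf2 (an SH3-domain ubiquitin ligase) had their highest level in R26P115, with 46.5, 27.6, 41.1 and 18.0 CPM.

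These 4 genes were near the floor of detection in the short-latency tumors. A count of 3 in a library, taken as the floor, was 0.0272 to 0.168 CPM in these tumors. The 5 short-latency libraries together held 14 reads of Ddo, 7 of Map3k19, 14 of Tmem184a and 4 of Sh3rf2, and the lowest long-latency library held 2, 2, 3 and 2 reads. Their fitted log2 fold changes (7.47, 7.26, 6.91 and 7.91) thus depend on few reads, and without R26P115 they were 3.21, 2.88, 3.82 and 6.25. Myo3b was near the floor as well, with 24 reads in the 5 short-latency libraries together and 8 in the lowest long-latency library. Of the 10 genes, DESeq2 called 6, and gave no adjusted p for the other 4 (Ddo, Map3k19, Tmem184a and Myo3b).

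**Figure D3:**
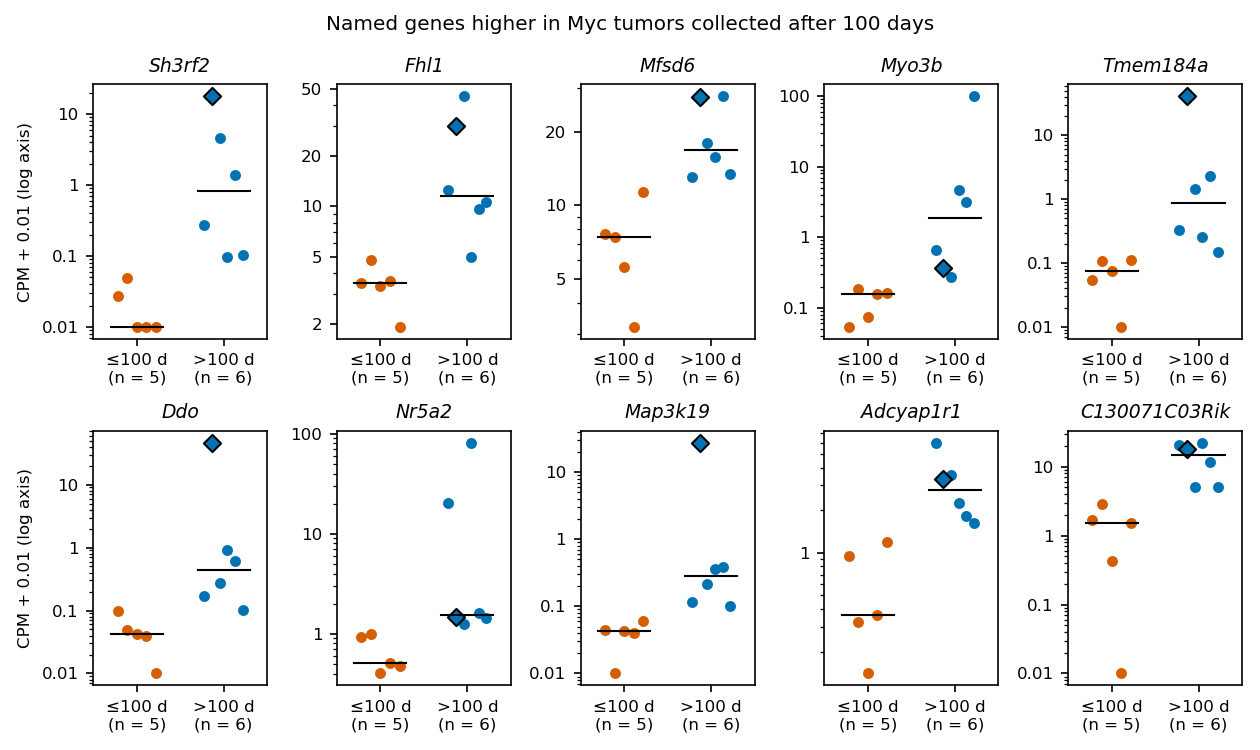
CPM after TMM scaling plus 0.01 (log axis) of the 10 named genes higher in long-latency tumors, drawn as 1 point per tumor with medians as black lines and R26P115 as a diamond. All 10 genes, chosen for groups that do not overlap, lie higher in all 6 long-latency tumors. Single tumors lead for genes such as Myo3b, Nr5a2, Ddo and Map3k19, and less so for Mfsd6, Adcyap1r1 and C130071C03Rik.

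The pattern of single tumors was general among the genes that DESeq2 called. For 71 of its 99 higher genes (71.7%), 1 tumor held over 50% of the summed long-latency CPM, against 16.1% of the 14274 genes above. Of the 99 genes, 71 reached the same mean count, and the share among them was 67.6% (48 of 71). The highest long-latency tumor, whatever its share, was R26P115 for 37 of the 99 genes, and each of the other 5 tumors was highest for 10 to 15. Without R26P115, DESeq2 called 89 genes, 62 of which were among the 112. Its 3 smallest adjusted p values, ahead of that of Slc2a3, belonged to Sult1c1, H60c and Sec14l4, with fitted log2 fold changes above 22. Sult1c1 had 0 CPM in all 5 short-latency tumors, 22 CPM in R26P170 and 2.13 CPM in R26P115, and at most 0.0532 CPM in the other 4, so that 2 tumors carried the call. These 3 genes, and the complement gene that follows, were chosen after their values were seen.

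C3, the central component of complement, had the second smallest p in edgeR's quasi-likelihood test (0.000533, adjusted p = 0.551). Its level was 5.99, 11.9, 13.1, 29.9 and 12.8 CPM in the short-latency tumors. The long-latency tumors had 62.7, 38.7, 124, 38.7, 51.9 and 62.8 CPM, so that the groups were apart after TMM scaling but not by CPM of the library total. The log2 fold change was 2.10 (standard error 0.44), 2.21 without R26P115, 2.35 among E8 tumors and 1.89 among numbered mice. DESeq2 called it, with an adjusted p of 0.00284.

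Of the 13 genes that DESeq2 called lower, 5 (38.5%) had over 50% of the summed short-latency CPM in 1 tumor, against 17% of the 14274 genes. Among the 10 that reached the same mean count, it was 5. The 3 genes that follow were chosen after their values were seen, as examples led by 1 or 2 tumors. Tbx20, a T-box factor of the heart and of hindbrain motor neurons, had 131 CPM in 29941C and 162 CPM in 43987A and 0.354 to 1.38 CPM in the other 9 tumors (edgeR log2 fold change -6.32, adjusted p = 0.551). Hmcn1, an extracellular matrix protein, had 312 CPM in 29941C and 199 CPM in 43992A and 0.921 to 19.9 CPM in the other 9. Htr7, a serotonin receptor, had 127 CPM in 43987A and 0.184 to 17.2 CPM elsewhere. These tumors differ from gene to gene. Slc2a3 and Tgif2 lay higher in each of the 5, but they were named for groups that do not overlap, so this contrast follows from how the genes were chosen.

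The programs tied to Myc were then examined as lists. Over all genes tested, 52.1% had a positive log2 fold change, and the signs within each list are read beside that share. Myc itself was at 96.2, 136, 99.6, 197 and 161 CPM in the short-latency tumors. Of the long-latency tumors, 5 had 91.7 to 229 CPM and R26P115 had 10.2 CPM. The log2 fold change was -0.13 (standard error 0.55, edgeR adjusted p = 0.955), and 0.12 without R26P115. Max, its obligate partner, had 83.4 to 137 CPM against 68.4 to 92.1 CPM (log2 fold change -0.38, unadjusted p = 0.0496, and 0.0703 without R26P115). Of 12 genes of the Myc family and its partners, 0 were called by edgeR or DESeq2 and 1 had an unadjusted p under 0.05, near the 9.02% of all genes, and 0 without R26P115.

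Genes of the cell cycle and DNA replication had a negative log2 fold change in 40 of 40 members, with a median of -0.47 and a range from -0.88 to -0.03. Of these 40 genes, 0 had an unadjusted p under 0.05, and since cell cycle genes are known to be expressed together, their shared sign does not count as 40 separate observations. Cdk1, the kinase of mitosis, had 102, 81.1, 67.7, 151 and 159 CPM against 13 to 91.5 CPM (median 69.2), a log2 fold change of -0.81 (unadjusted p = 0.0784). Mki67 had 118, 150, 190, 366 and 79.5 CPM against 10.4 to 207 CPM (median 131), a log2 fold change of -0.64 (unadjusted p = 0.318). The lowest level of both genes was that of R26P115, and the median of the list was -0.28 without that tumor, -0.65 among E8 tumors and -0.16 among numbered mice. Without R26P115, Cdk1 had a log2 fold change of -0.60 (unadjusted p = 0.0465), and Mki67 had one of -0.40.

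Nucleolar and nucleotide genes, which Myc activates, showed the same form, with 23 of 25 members negative, a median of -0.36 and 1 gene at an unadjusted p under 0.05. That gene was Mrto4, a factor of ribosome assembly, with 42.2 to 67.2 CPM against 21.2 to 49.2 CPM (log2 fold change -0.52, unadjusted p = 0.0476). Without R26P115, the lowest tumor for Mrto4, its p was 0.0519, Gnl3, a nucleolar GTPase, was the 1 gene under 0.05 (unadjusted p = 0.0472), and the median of the list was -0.21. Among inhibitors of the cell cycle and senescence genes, Cdkn2a had 102, 39.4, 23.9, 18.6 and 37.6 CPM against 6.27 to 72.6 CPM (log2 fold change -0.39, and -0.18 without R26P115). Lmnb1, a lamin whose loss marks senescent cells, had 49.2 to 142 CPM against 23.4 to 67.6 CPM (log2 fold change -0.93, unadjusted p = 0.0289, and 0.0513 without R26P115). It was the only 1 of the 17 genes of this list under 0.05, a share below the 9.02% of all genes. Of the 28 SWI/SNF subunits, 9 had a positive value, with a median of -0.18, and Bcl7a, an accessory subunit, was the only one at an unadjusted p under 0.05 (log2 fold change -1.10, unadjusted p = 0.0432, and 0.0794 without R26P115). As 9.02% of all genes reach this threshold, 1 of 28 is no result about the subunits.

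Fetal growth and imprinted genes varied widely within both groups. Igf2, the fetal growth factor, had 713, 102, 14.2, 451 and 29.5 CPM in the short-latency tumors and 408, 3150, 183, 2080, 534 and 4.65 CPM in the long-latency tumors (log2 fold change 2.02, standard error 1.32, edgeR adjusted p = 0.629). Without R26P115, its highest tumor, the log2 fold change was 1.32. H19, the noncoding RNA beside Igf2, went the other way in the fit (log2 fold change -1.34, unadjusted p = 0.187), with 63.7 to 935 CPM against 11.7 to 346 CPM. Igf2bp3, an RNA-binding protein of the fetus that binds Igf2 messages, had 37.4 and 66.0 CPM in the intracranial tumors 29941C and 43992A and 0.163 to 1.89 CPM in the other 3 short-latency tumors. The long-latency tumors had 0.381 to 3.44 CPM, so that the log2 fold change of -3.95 (unadjusted p = 0.0113) rested on these 2 tumors. Peg3, an imprinted zinc finger gene, and Cdkn1c, an imprinted inhibitor of the cell cycle, were highest in R26P115 (135 and 174 CPM), and their log2 fold changes of 2.25 and 2.21 were 0.50 and 0.88 without it (unadjusted p = 0.251 for Peg3).

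Hox genes, which set position along the body axis, had a median log2 fold change of -0.03, and 15 of 31 were positive. The median ran from -0.48 to 1.23 when single tumors were left out, and was -1.66 among E8 tumors and 0.46 among numbered mice. Hoxd3 had at most 0.207 CPM in the short-latency tumors, 12.5 CPM in R26P170, 7.98 CPM in 43989C and at most 0.645 CPM in the other 4 long-latency tumors. DESeq2 called it (adjusted p = 0.0386) and edgeR did not (log2 fold change 5.75, adjusted p = 0.551). Hoxd4 was highest in the same 2 tumors (18.4 and 11.3 CPM). Hoxa11 was at 53.9 CPM in 29941C and at most 2.15 CPM in the other 10 tumors. Other members were shared by most tumors of both groups. Hoxc8 had 13 to 124 CPM in 9 tumors and 2.44 and 1.26 CPM in R26P115 and R26P123, and Hoxb4 had 2.19 to 31 CPM in all 11.

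Among factors of the neural crest and craniofacial mesenchyme, Alx1, a homeodomain factor of the frontonasal mesenchyme, had 20.5, 15.3, 61.9, 526 and 125 CPM in the short-latency tumors. The long-latency tumors had 17.1, 2.09, 0.0585, 2.91, 0.336 and 0.0921 CPM, so that the groups overlapped only through 43989C (log2 fold change -5.32, unadjusted p = 0.00453, edgeR adjusted p = 0.551). DESeq2 called it with an adjusted p of 0.0107. The highest level was in the nose tumor of 43990A (526 CPM), and the next in the intracranial tumor of 43992A (125 CPM). The interaction of latency and site in edgeR had an unadjusted p of 0.0203 for Alx1 (adjusted p = 0.865). Among E8 tumors the log2 fold change was -4.53 and among numbered mice -4.47. Pax3, a factor of the neural tube and crest, reached 152 CPM in R26P170, and Hand2, a factor of the branchial arches and heart, reached 74.4 CPM in 43825B. The list as a whole had 22 of 36 positive values and a median of 0.30, and of 0.46 without R26P115.

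Genes of immune programs overlapped between the groups. The 11 genes of MHC class II presentation all had positive log2 fold changes (median 0.77), with 0 at an unadjusted p under 0.05. H2-Ab1, a chain of class II, had 25.7, 291, 90.8, 198 and 159 CPM against 43.8 to 874 CPM, the highest value in 43825B, and without that tumor the median of the list was 0.02. Interferon-stimulated genes had a median of -0.24 with 12 of 36 positive, MHC class I genes 0.04, T and NK cell markers 0.21 and markers of macrophages and monocytes 0.47. When single tumors were left out, these medians ran, in that order, from -0.48 to 0.14, -0.16 to 0.34, -0.28 to 0.95 and 0.12 to 0.62. Of the collagen and matrix genes, 21 of 33 were positive (median 0.47, and -0.15 without R26P123). Loxl2, which crosslinks collagen, had 30.7, 23.8, 8.51, 7.53 and 13.5 CPM against 23.6 to 258 CPM (median 58.6), a log2 fold change of 2.34 (unadjusted p = 0.00592). Tek, the angiopoietin receptor of endothelium, had 2.92 to 7.56 CPM against 4.33 to 18.3 CPM (log2 fold change 1.40, unadjusted p = 0.00996).

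**Figure D4:**
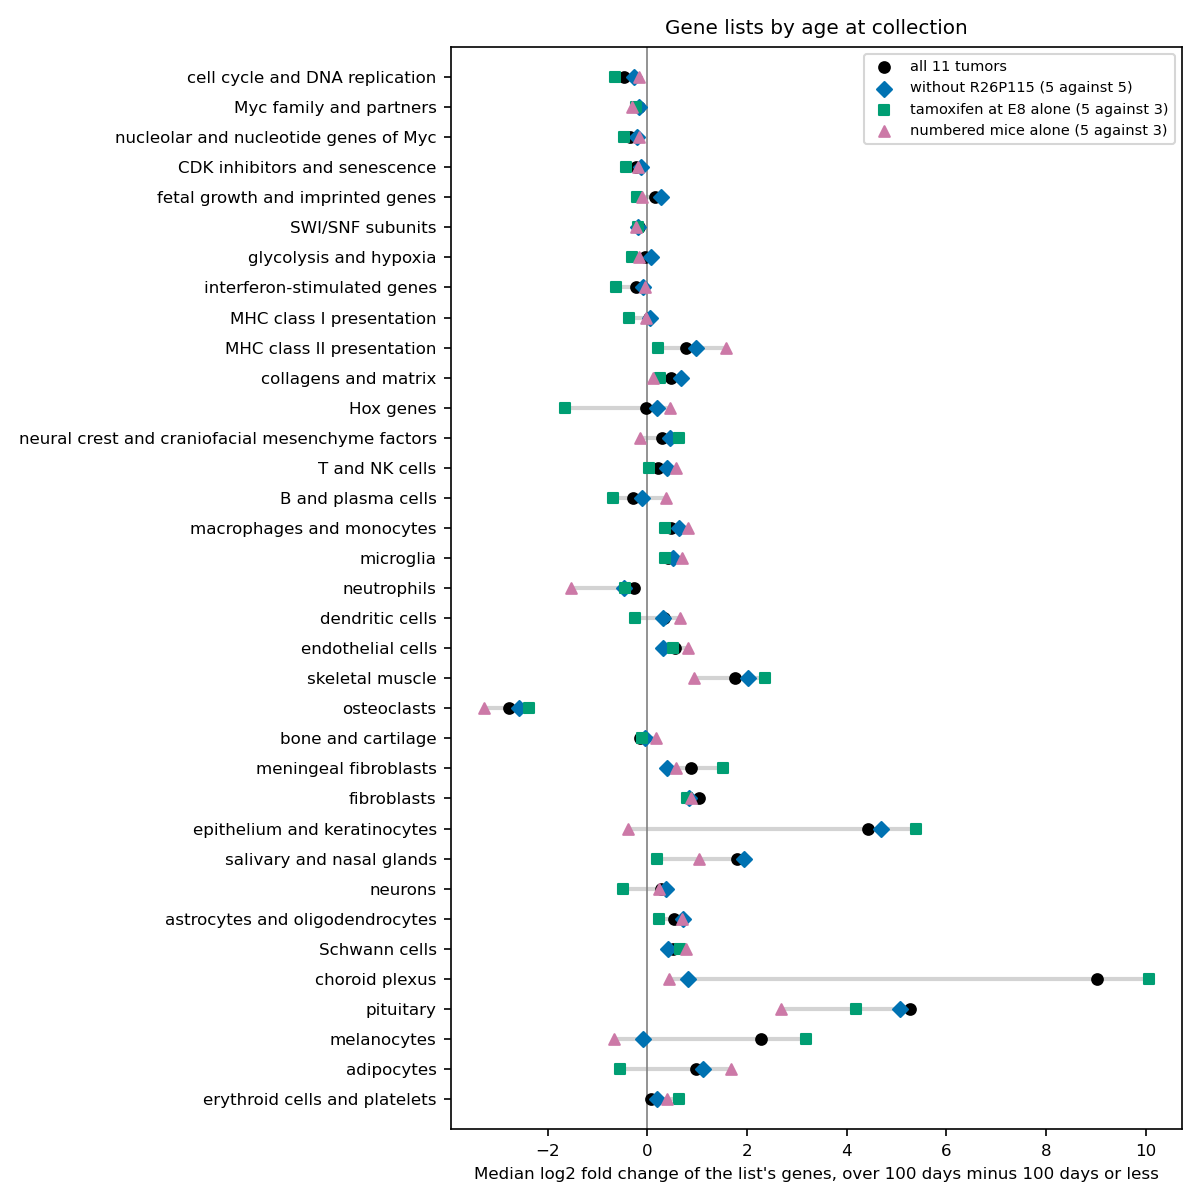
Median log2 fold change of each gene list (long minus short latency) in the 11 tumors (circles), without R26P115 (diamonds), among E8 tumors (squares) and among numbered mice (triangles). Most program lists lie within 1 of 0 in every subset, while other medians move between subsets. Among these are choroid plexus, melanocytes, epithelium, pituitary, salivary and nasal glands, adipocytes, neutrophils, Hox genes and MHC class II.

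Marker lists of other cell types were summed per tumor to see what each sample held. Choroid plexus genes summed to 255000 TPM in R26P115 and to 7.56 to 136 TPM in the other 10 tumors. Their median log2 fold change was 9.01 with 10 of 11 at an unadjusted p under 0.05, and 0.82 with 0 of 11 without R26P115. Melanocyte markers had a median of 2.29 with 4 of 8 at an unadjusted p under 0.05, and of -0.09 with 2 of 8 without R26P115. Of all genes tested, 9.02% lay under this threshold, and 1453 of 21120 did so without R26P115. The level of Enpp2, which choroid plexus shares with other tissues, was 81400 CPM in R26P115 and 1.08 to 39.6 CPM elsewhere.

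The pituitary hormone genes Gh, Pomc and Prl were high in 2 long-latency intracranial tumors. Gh, growth hormone, had 69.5 CPM in 43989C and 61.2 CPM in R26P170, and at most 1.02 CPM in the other 9 tumors. Pomc had 62.6 and 53.2 CPM in these tumors and at most 0.705 CPM elsewhere, and Prl had 54.6 and 19.7 CPM and at most 1.24 CPM elsewhere. Lhb, a chain of luteinizing hormone, was instead at 21.9 CPM in R26P115 and at most 0.336 CPM in the other 10 tumors. Of the 11 pituitary genes tested, 7 had an unadjusted p under 0.05, against 9.02% of all genes, and DESeq2 called 3, namely Gh, Pomc and Prl, against 0.466% of all genes. The summed level was 425 TPM in 43989C, 352 TPM in R26P170, 93.6 TPM in R26P115 and 0.774 to 21.4 TPM in the other 8, so that the DESeq2 calls rest on 2 tumors. Pou1f1, the pituitary transcription factor, was at most 0.269 CPM in any tumor.

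Keratinocyte genes were highest in R26P123. Krt14, a keratin of basal skin cells, was at 424 CPM and Krt5 at 211 CPM in this extracranial tumor, and Krt14 was at most 4.68 CPM in the other 10 tumors. Krt8 and Krt18, keratins of simple epithelia that rhabdoid tumors can express, followed other tumors. Krt8 had 820 CPM in 43992A, 813 in 29225D and 836 in 43825B and at most 96.2 CPM in the other 8, so that both groups held tumors with high levels. The list had 10 of 20 genes at an unadjusted p under 0.05, against 9.02% of all genes, and a median of 4.42, which was 1.40 without R26P123 and -0.38 among numbered mice.

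Osteoclast genes went the other way, with 11 of 11 values negative and a median of -2.78, and they too followed single tumors. Acp5, the acid phosphatase of osteoclasts, had 7100 CPM in 43998A and 20 to 119 CPM in the other 4 short-latency tumors, against 21.7 to 782 CPM in the long-latency tumors. Ctsk, the collagenase of osteoclasts, had 7710 CPM in 43998A, 917 in R26P123 and 361 in 43825B, and at most 42.5 CPM in the other 8. Without 43998A the median of the list was 2.13. These 3 tumors were extracranial. Skeletal muscle genes summed to 1090 TPM in R26P123 and to 9.66 to 253 TPM in the other tumors, with a median log2 fold change of 1.77, and 0.40 without R26P123. The part of these tissues in the differences of other genes was not tested.

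The other marker lists are read against the 9.02% of all genes at an unadjusted p under 0.05, and 1 of 15 or 2 of 20 is near that share. Counts without R26P115 are read against 1453 of 21120 genes. Meningeal fibroblast markers had 5 of 13, of which 3 lay higher and 2 lower (median 0.87), and 2 of 13 (median 0.40) without R26P115. Ptgds, the prostaglandin D synthase of the meninges, had 998 CPM in R26P115, 78.4 CPM in 43989C and at most 2.96 CPM in the other 9 tumors (log2 fold change 7.66, and 4.21 with an unadjusted p of 0.0574 without R26P115). Without 43989C the median of this list was -0.28. Markers of salivary and nasal glands had 3 of 10 (median 1.80, and 0.75 without R26P170), and Bpifb1, a secreted protein of the airway and nasal epithelium, had 40 CPM in R26P170 and at most 0.160 CPM elsewhere. Fibroblast markers had 3 of 14 (median 1.04), and 2 of 14 without R26P115, with a summed level of 8630 TPM in 43825B and of 424 to 2530 TPM in the other 10 tumors. Endothelial markers had 1 of 15, which was Tek (median 0.56, and 0.32 without R26P115). Schwann cell markers had 2 of 11. Among them Cdh19, a cadherin of Schwann cell precursors, had 0.117 to 0.845 CPM against 0.468 to 6.58 CPM (log2 fold change 2.87). Neuronal markers had 2 of 20, which went in opposite directions. Stmn2, a microtubule protein of growing axons, had 377 CPM in 43998A and 2.01 to 32.2 CPM in the other 10 tumors (log2 fold change -2.80, unadjusted p = 0.0422, and 0.0719 without R26P115). Gad1, which makes the transmitter GABA, had 304 CPM in 43825B and 111 CPM in 29225D and at most 27.2 CPM in the other 9 tumors (log2 fold change 3.75, and 0.80 among E8 tumors). Myh7, a myosin of heart and slow muscle, was called by DESeq2 (adjusted p = 0.00207, edgeR log2 fold change 6.51, and 3.92 without R26P115) and had 39.2 CPM in R26P115, 5.57 CPM in 43825B and at most 0.479 CPM in the other 9. Stmn2, Gad1 and Myh7 thus were led by 1 or 2 tumors, while 4 of the 6 long-latency tumors lay above all short-latency ones for Cdh19.

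**Figure D5:**
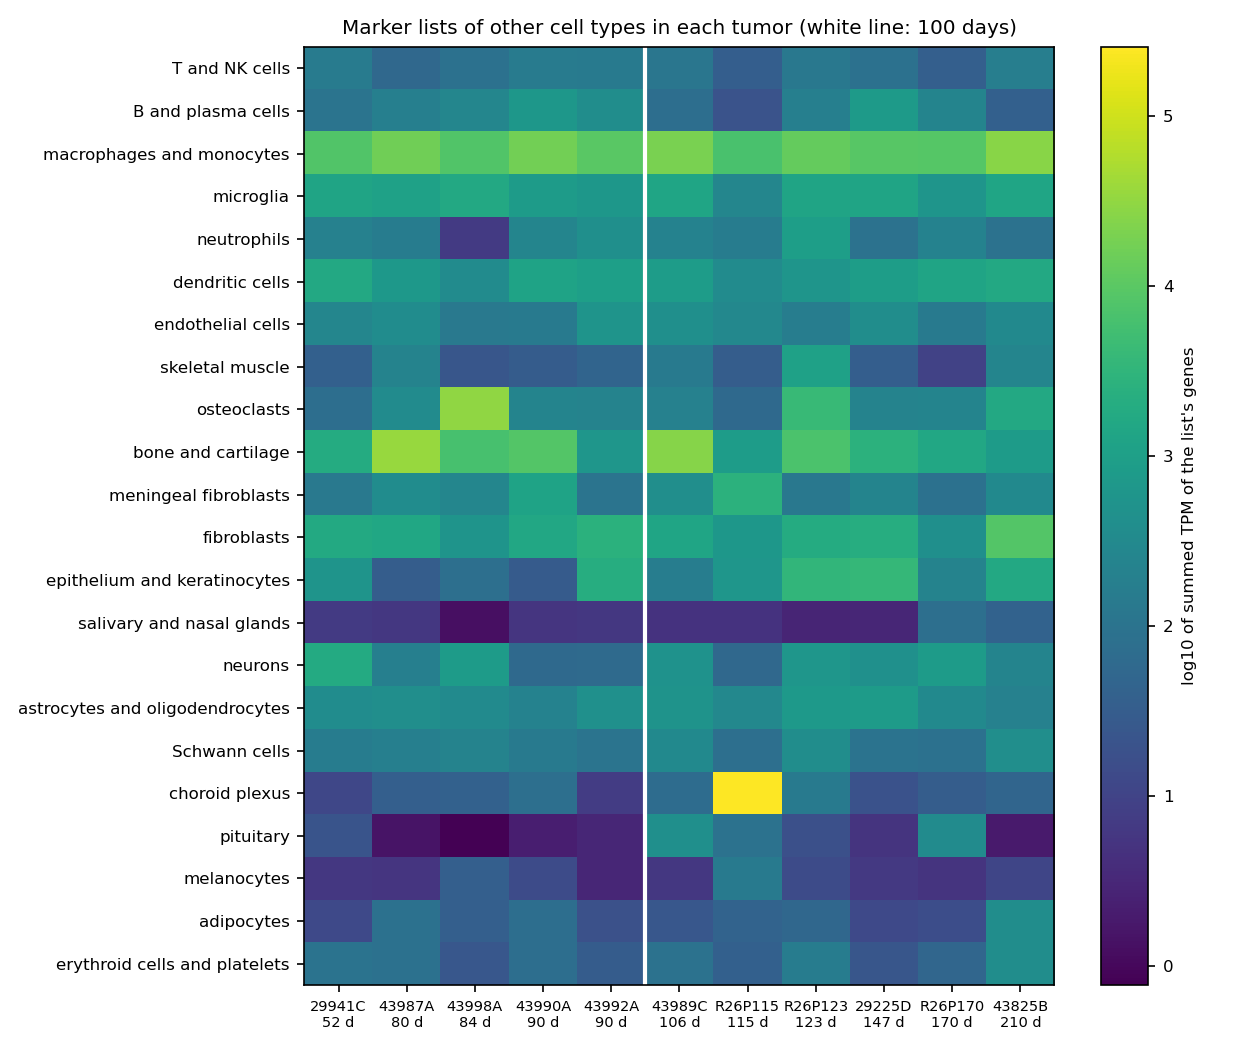
Summed TPM of the marker genes of 22 cell types (log10 colour scale) in each of the 11 tumors, ordered by age, with a white line at 100 days. Choroid plexus stands out in R26P115, osteoclasts in 43998A, and pituitary in 43989C and R26P170, while the list of epithelium and keratinocytes is high in 29225D, R26P123, 43992A and 43825B.

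The tumors were last compared as whole profiles. If latency groups differed broadly, tumors would correlate better within a group than across groups. Over the 5000 most variable genes, the mean Pearson correlation was 0.671 ± 0.0819 (SD, 30 pairs) across the groups, 0.671 ± 0.074 (SD, 10 pairs) among short-latency tumors and 0.651 ± 0.0935 (SD, 15 pairs) among long-latency tumors. The mean across groups minus that within groups was 0.0124, with a two-sided exact permutation p of 0.355 over all 462 assignments. The groups of 5 and 6 tumors were thus not closer within than across by this measure.

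A last test asked whether the difference by latency was unlike in intracranial and extracranial tumors. The interaction of latency and site in edgeR gave 0 genes past the threshold, with 1067 genes at an unadjusted p under 0.05 (557 with a more positive log2 fold change in intracranial tumors and 510 with a more negative one) and a smallest adjusted p of 0.39. No other test was run for the interaction. The cells hold 2 short-latency intracranial tumors and 2 long-latency extracranial tumors, so that each value rests on few mice.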

How the data were processed

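Libraries of polyadenylated RNA were stranded and read from both ends. The authors counted reads per gene with STAR 2.5.3a on mm10, per the labels, and deposited raw counts without normalization, and TPM values, for which the steps are not given in the sources used here. The annotation is not given in the sources used here, and positions came from GENCODE M21 (24490 of 24982 symbols found). Subgroup followed the study's sample table, age and site the sample labels. The 5 columns of tumors of the other subgroup in each table were not used. Members and gene lists were chosen with earlier results of these data known.

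Counts were tested with edgeR 4.0.16 (TMM, glmQLFit, glmQLFTest) in R 4.3.3, for genes with any count, with Benjamini-Hochberg adjustment over all 21261 genes. The code was tested on artificial counts with known differences. DESeq2 1.42.0 and limma 3.58.1 were alternatives, besides other scaling, filters, covariates, subsets and omission of single tumors. Log2 CPM for correlations used a prior count of 2, and log2(TPM + 1) a pseudocount of 1. Named genes were Smarcb1, Myc, Mki67, Cdkn2a, Igf2 and H19, up to 10 genes per direction with the smallest p, a mean count of at least 50, no overlap of CPM and an absolute log2 fold change above 1, and up to 4 members of each list with the smallest p. Other members are named for their role, by their values. A few genes that met these rules are not reported here. Each mouse gave 1 tumor. Reads carry no molecular identifiers, so floors cover counting error only. Figures were drawn with matplotlib 3.10.9.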

Additional observations from a re-analysis of the deposited data

Results flagged for a closer look

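Within each group of 5 or 6 tumors, the highest and lowest tumor were checked by Dixon's ratio, the gap to the nearest tumor divided by the range of the group, on log2(CPM + 1), for the 23 named genes and the mean of each of the 35 lists. Of 116 groups checked, 22 held a tumor past the 95% critical value, and chance gives about 1 in 20.

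R26P115 was that tumor in 8 of the 22. It was lowest for Myc (0.699), Cenpw (0.712) and the nucleolar and nucleotide genes (0.681). It was highest for Tmem184a (0.703), Ddo (0.854), Map3k19 (0.931), choroid plexus (0.956) and melanocytes (0.876).

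Among the other long-latency tumors, 43825B was highest for Myo3b (0.656), dendritic cells (0.698) and adipocytes (0.645). R26P170 was highest for glycolysis and hypoxia (0.636) and for salivary and nasal glands (0.672), R26P123 for epithelium and keratinocytes (0.849) and 43989C for Schwann cells (0.664).

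Among the short-latency tumors, 43998A was highest for osteoclasts (0.863) and lowest for neural crest and craniofacial mesenchyme factors (0.853) and for salivary and nasal glands (0.827). The tumor of 43992A was highest for Tesmin (0.775), 43990A for dendritic cells (0.811), 43987A for skeletal muscle (0.877) and 29941C for astrocytes and oligodendrocytes (0.855).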

How the results depend on the processing

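The count of 0 genes held for edgeR under every other scaling, filter, dispersion, covariate and subset run, with log2 age as a continuous variable (smallest adjusted p 0.0787), without a fold threshold, and when single tumors were left out (0 to 0 genes, 1453 to 1970 at an unadjusted p under 0.05). DESeq2 called 112 genes, 89 without R26P115, 107 among E8 tumors and 48 among numbered mice, the latter 3 chosen after seeing the data. The cause of the difference between edgeR and DESeq2 was not tested. The interaction with site stayed at 0 genes, also with 43990A as intracranial, where the study's sample table places it. The difference in correlation was -0.000471 among E8 tumors (exact permutation p = 1) and 0.00747 to 0.0164 when single tumors were left out. Of the named genes, Myc turned to 0.14 per doubling of age and to 0.13 in DESeq2 without R26P115, and Igf2 to -0.97 among extracranial tumors. Leaving out single tumors moved Myc between -0.38 and 0.12 and Cdkn2a between -0.76 and 0.18. No paired analysis was possible because the groups shared no mouse and no label that links tumors. A count of 3 limits detection to 0.0272 to 0.168 CPM.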
